A study of Mus musculus with 19 samples.

Results

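Bone marrow of mice that carried the Vav-iCre transgene and no floxed gene (VAV) was compared with marrow of wild-type mice (WT). These 2 genotypes hold 7 of the 19 libraries of the series, 4 from VAV and 3 from WT, and a gene was tested if its normalized counts averaged 10 or more across all 19 libraries, which left 13976 of the 34432 genes in the table. Polyadenylated RNA was sequenced from marrow flushed out of the tibiae and femurs of untreated 8-week-old mice of 5 genotypes. The VAV mice serve as the Cre-only control for mice with floxed Cdk8 and Vav-iCre (CDK8KO) and for mice that combine floxed Cdk8, Vav-iCre and a Cdk19 null allele (DKO). Cdk19 null mice (CDK19KO) and WT mice carry no Cre by their labels, so VAV against WT asks what differs in marrow when the transgene is present and both kinase genes are intact. The series title gives C57/BL6 as the background, and the labels do not name the Vav-iCre line, its source or whether VAV and WT mice were littermates, so the transgene, the genome around its insertion and differences between colonies cannot be told apart.

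Vav-iCre places a codon-improved Cre recombinase under the regulatory elements of Vav1, a signalling gene used throughout the blood system, and deletes floxed genes in nearly all blood cells, with some activity in endothelium. The marrow itself is made mostly of neutrophils and their precursors, with monocytes, red cell precursors, lymphocytes, macrophages and a sparse stroma.

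VAV libraries held 25472258 to 33010241 reads assigned to genes and WT libraries 16376215 to 25580469. Genes listed for neutrophil secondary and tertiary granules took 4.02 to 6.46% of the normalized counts in VAV and 3.79 to 4.81% in WT. The 16 skeletal muscle genes together took at most 0.000998% in VAV and 0.00234% in WT. VAV replicate 3 stood apart from the other 3 VAV libraries. Its counts differed from theirs by a chi-square per degree of freedom of 164 to 241, against 53.4 to 67.7 among the others and 15.3 to 33.0 among WT libraries. Erythroid genes, the markers of red cell precursors, took 3.54% of its normalized counts, against 0.16 to 0.323% in the other VAV libraries and 0.734 to 1.2% in WT. Its label gives no reason to leave it out, so it was kept, and results that rest on it are given with and without it.

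Few genes separated VAV from WT marrow once p-values were adjusted. Of the 13976 genes, 13 (0.093%) passed at a limma adjusted p under 0.05, 10 of them higher in VAV (0.0716%) and 3 lower (0.0215%). Prox1 was the gene that fell furthest and Sva the gene that rose furthest, and Commd10 came next by adjusted p. At an unadjusted p under 0.05 stood 2068 genes (14.8%), and the libraries of the 2 genotypes did not overlap for 969 genes higher in VAV (6.93%) and 765 lower (5.47%). Without VAV replicate 3 the number called was 416 (2.98%), of which 320 were higher (2.29%) and 96 lower (0.687%), and all 13 genes were among them. Only Prox1, Sva and Commd10 passed whichever of the 7 libraries was left out.

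**Figure D1:**
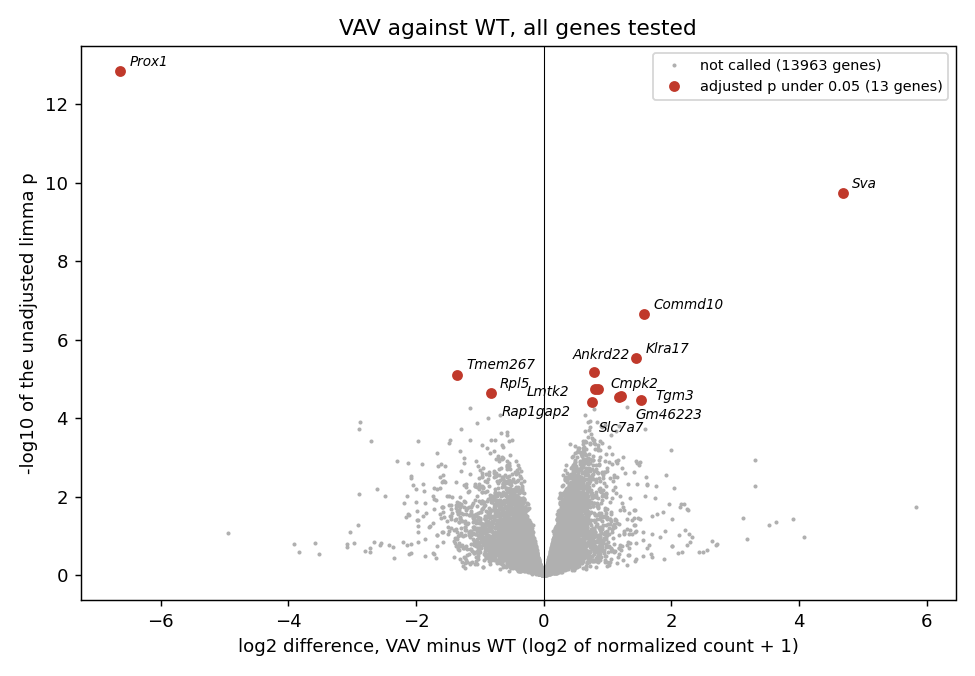
Log2 difference of VAV minus WT (horizontal axis) against -log10 of the unadjusted limma p (vertical axis) for the 13976 genes tested. The 13 genes that passed at an adjusted p under 0.05 are drawn in red, with Prox1 alone at the far left and Sva and Commd10 highest on the right.

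Prox1 (ENSMUSG00000010175; GRCm38 chromosome 1, 190118035 to 190170714) encodes a homeobox transcription factor known for setting lymphatic endothelial identity. It held 3.57, 8.02, 6.10 and 4.20 normalized counts in VAV replicates 1 to 4, against 518, 848 and 533 in WT replicates 1 to 3. The highest VAV library was thus far below the lowest WT library, and the WT mean was 116 times the VAV mean. On the log2(normalized count + 1) scale Prox1 fell by 6.63 ± 0.35 in VAV (SE; limma adjusted p = 1.97e-09). Of 9 tested markers of lymphatic and sinusoidal endothelium, 5 were above 0 and Prox1 was the only one called. Lyve1, a hyaluronan receptor of lymphatic vessels and some macrophages, held 60.4 to 143 normalized counts in VAV and 31.8 to 38.4 in WT (limma adjusted p = 0.135).

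Sva (ENSMUSG00000023289; GRCm38 chromosome 6, 42038394 to 42042851), which encodes a secreted antigen of seminal vesicle fluid, was low but present in every VAV library and had no read in any WT library. Its normalized counts were 24.1, 20.4, 27.0 and 27.7 in VAV, which correspond to 27 to 33 reads per library, against 0, 0 and 0 in WT. A count of 0 allows up to 3 reads, or 2.58 to 3.99 normalized counts in these WT libraries, so Sva was at least 7.15-fold higher in VAV, a bound that covers counting error only. The fitted log2 difference was 4.68 ± 0.37 (SE; limma adjusted p = 1.27e-06) and depends on the pseudocount of 1.

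Commd10 (ENSMUSG00000042705; GRCm38 chromosome 18, 46958816 to 47234284) encodes a protein of the COMM domain family, which takes part in endosomal sorting, and is known as the integration site of a common Vav-iCre line. It held 1055, 1288, 1332 and 1425 normalized counts in VAV, against 502, 371 and 416 in WT. Its VAV mean was 2.97 times its WT mean, and the log2 difference was 1.57 ± 0.20 (SE; limma adjusted p = 0.00103). The exact two-sided permutation p over the libraries was 0.0571, the smallest that 4 against 3 libraries allow.

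No tested neighbour of these 3 genes was called with them, which says little because only 0.093% of all genes were called. Within 5 Mb on either side, 44 other tested genes surrounded Prox1, 45 Sva and 27 Commd10. VAV and WT libraries did not overlap for 4 of those around Prox1, 10 around Sva and 2 around Commd10, against 6.93% of all genes higher and 5.47% lower. Smyd2 and Rps6kc1, the nearest tested genes on either side of Prox1, differed by -0.02 ± 0.25 and 0.19 ± 0.18 on the log2 scale (SE). Ap3s1 and Sema6a, beside Commd10, differed by 0.06 ± 0.23 and 0.41 ± 0.30, and Kel and Gstk1, beside Sva, by -0.75 ± 0.70 and 0.37 ± 0.28. Kel held 2145 normalized counts in VAV replicate 3, against 191 to 342 in the other VAV libraries, so its difference says little. At 0.307 to 0.418 Mb from Sva, Zyx differed by 0.60 and Tas2r135, Tas2r126 and Ephb6 by -1.65, -1.44 and -1.63. Of the 45 genes around Sva, 10 had an unadjusted p under 0.05, against 14.8% of all genes. The 13 called genes lay on 11 chromosomes, and no called gene had another within 5 Mb.

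The same 3 genes separated the genotypes labelled with Cre from those without it across the whole series. Prox1 averaged 2.82 ± 1.02 normalized counts in CDK8KO and 19.03 ± 3.64 in DKO, against 562 ± 263 in CDK19KO (SD, n = 4 each). Sva averaged 30.4 ± 7.24 in CDK8KO and 37.4 ± 4.16 in DKO, and no CDK19KO library held a read of it. Commd10 averaged 1546 ± 480.0 in CDK8KO and 1494 ± 271 in DKO, against 341 ± 21.4 in CDK19KO. For each gene the 12 libraries labelled with Cre and the 7 without it did not overlap.

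**Figure D2:**
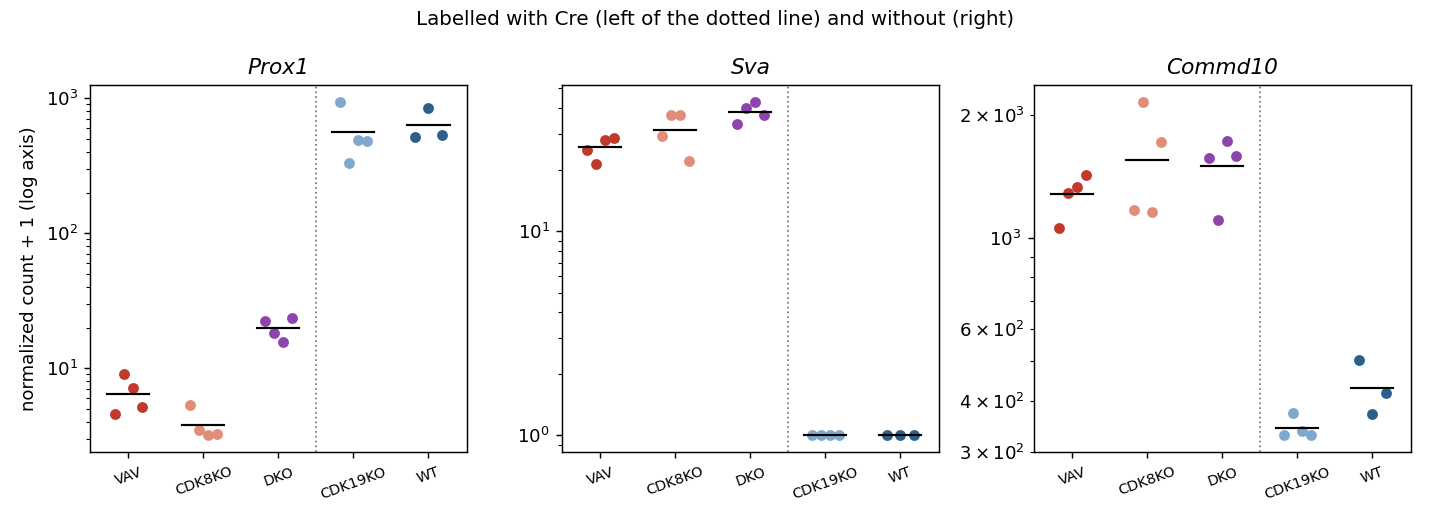
Normalized count + 1 on a log axis for Prox1, Sva and Commd10 in each library of the 5 genotypes, with VAV, CDK8KO and DKO left of the dotted line and CDK19KO and WT right of it; bars are group means. Prox1 is high only right of the line, and Sva and Commd10 are higher left of it in every library.

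Other genes were also called higher in VAV. Klra17 (chromosome 6, 129831154 to 129876672), an Ly49-family receptor of plasmacytoid dendritic and myeloid cells, held 402, 312, 185 and 274 normalized counts in VAV, against 107, 89.1 and 113 in WT, a log2 difference of 1.45 ± 0.22 (SE; limma adjusted p = 0.0102). Tgm3 (chromosome 2, 130012349 to 130050399), a transglutaminase that cross-links proteins, held 92.8, 117, 79.3 and 57.9 in VAV, against 31.8, 38.6 and 19.2 in WT (1.52 ± 0.28; limma adjusted p = 0.0392). Slc7a7 (chromosome 14, 54369442 to 54417780), the light chain of a transporter of cationic amino acids, held 648, 286, 519 and 382 in VAV, against 215, 148 and 214 in WT (1.21 ± 0.22; limma adjusted p = 0.037). In all 3 genes the lowest VAV library was above the highest WT library.

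Smaller rises were called for 4 genes of moderate or high level. Cmpk2 (chromosome 12, 26469204 to 26479837), a mitochondrial nucleotide kinase known as interferon-induced, held 2816, 2300.0, 1926 and 1826 normalized counts in VAV, against 1079.8, 1373 and 1203 in WT (0.85 ± 0.15; limma adjusted p = 0.0321). Ankrd22 (chromosome 19, 34121469 to 34166053), an ankyrin-repeat gene, held 837, 963, 686 and 929.8 in VAV, against 511, 492 and 467 in WT (0.79 ± 0.13; limma adjusted p = 0.0181). Lmtk2 (chromosome 5, 144100436 to 144188204), a membrane-anchored kinase, held 3624 to 5432 in VAV and 2523 to 2610.0 in WT (0.81 ± 0.14; limma adjusted p = 0.0321). Rap1gap2 (chromosome 11, 74383356 to 74610915), an activator of GTP hydrolysis by Rap1, held 1457 to 2098 in VAV and 972 to 1203 in WT (0.75 ± 0.14; limma adjusted p = 0.0414). VAV replicate 3 was the lowest VAV library for Ankrd22, Lmtk2 and Rap1gap2 and replicate 4 for Cmpk2, and all were above WT. The predicted gene Gm46223, named because it completes the 13, held 9702 to 17301 in VAV and 5266 to 5772 in WT (1.17 ± 0.21; limma adjusted p = 0.037). It is annotated as a processed pseudogene of 675 bases, so its reads may have been shared with the gene it copies.

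Beside Prox1, 2 genes were called lower. Tmem267 (chromosome 13, 119488039 to 119611059), a transmembrane protein gene, held 41.0, 46.7, 61.9 and 40.3 normalized counts in VAV, against 145, 85.1 and 145 in WT. It fell by 1.36 ± 0.22 on the log2 scale (SE, limma adjusted p = 0.0181). Nnt, from the list of genes that vary between C57BL/6 substrains, lies 0.079 Mb away. Nnt held 687 to 1955 in VAV and 466 to 632 in WT (0.94 ± 0.27, limma adjusted p = 0.143). Of that list's 11 tested genes, 5 were above 0 and none was called. Within 5 Mb of Tmem267, 5 of 19 tested genes had an unadjusted p under 0.05, against 14.8% of all genes. Whether this region differs by substrain was not tested. Rpl5 (chromosome 5, 107900502 to 107909005), a protein of the large ribosomal subunit, held 693, 655, 952 and 745 in VAV, against 1259, 1388 and 1377 in WT, and fell by 0.83 ± 0.15 (limma adjusted p = 0.0355). Rpl5 has many near-identical pseudogene copies, so its reads may have been shared with them. These 10 genes other than Prox1, Sva and Commd10 lost their call in at least 3 of the 7 fits that left out 1 library, and in the fit on VAV and WT alone.

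**Figure D3:**
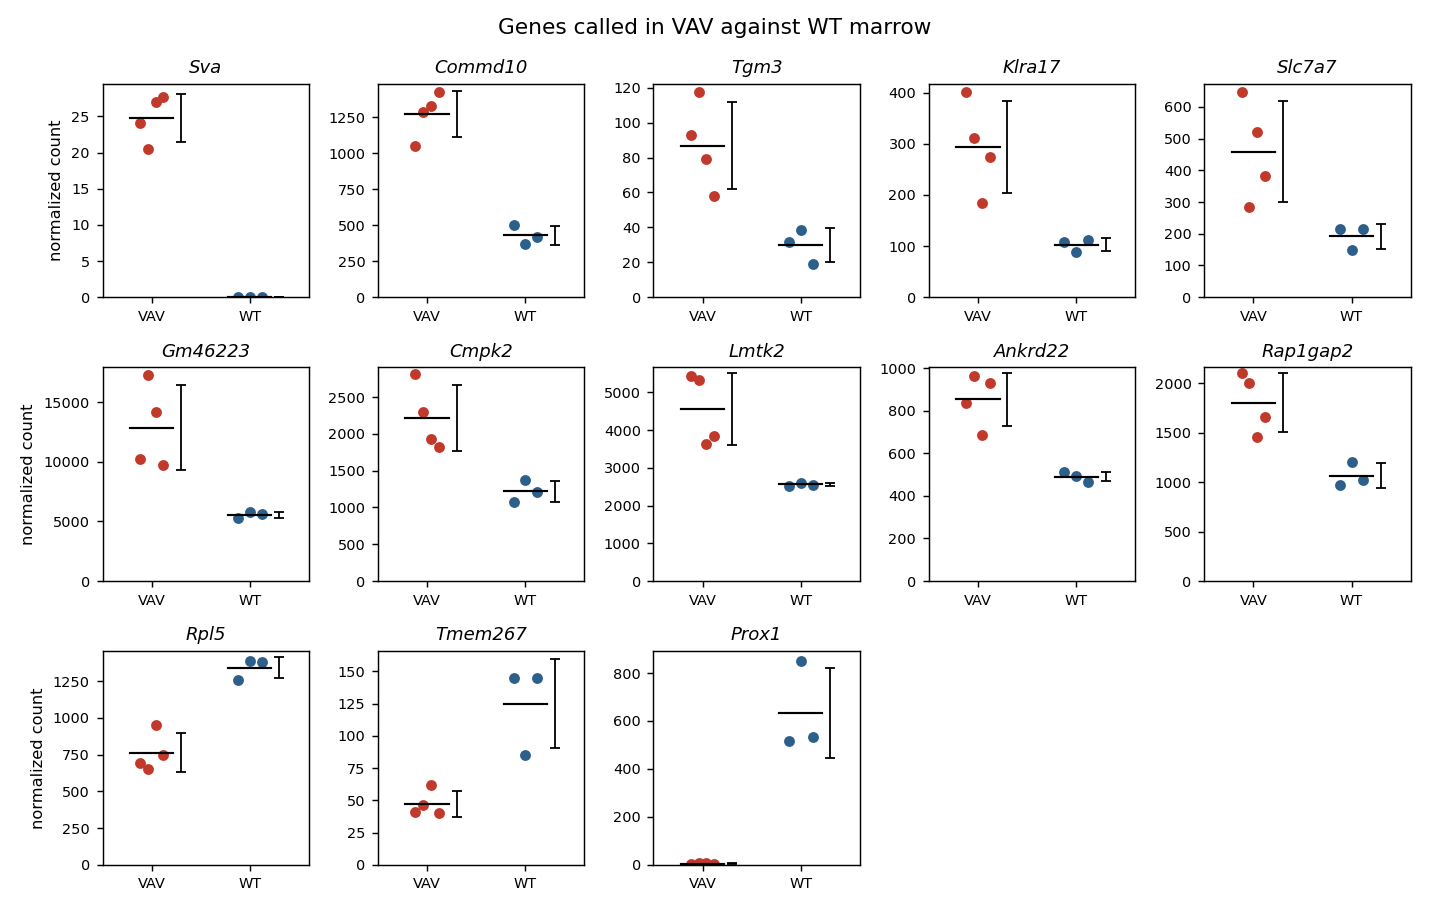
Normalized counts of the 13 called genes in each VAV (red) and WT (blue) library; horizontal lines are means and bars beside the points are 1 SD. In every panel the VAV and WT libraries do not overlap.

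Just short of the threshold stood Mvk, mevalonate kinase of the cholesterol pathway, with 74.4 to 104 normalized counts in VAV and 26.9 to 46.4 in WT (log2 difference 1.31 ± 0.25, limma adjusted p = 0.0509). The 7 genes lower in VAV with the next smallest p were not called, with limma adjusted p from 0.0509 to 0.0829. Zbtb16, which encodes the transcription factor PLZF of innate-like lymphocytes and progenitors, held 136 to 234 normalized counts in VAV and 363 to 558 in WT. Il1r2, the decoy receptor for interleukin-1, held 881 to 1349 in VAV and 1623 to 2812 in WT. Nmd3, an export adapter of the large ribosomal subunit, held 644 to 869.7 in VAV and 1055 to 1497 in WT, and Alkbh1, a nucleic acid demethylase, held 342 to 555 in VAV and 697 to 910.5 in WT. Ttyh1 and Tdrp were near the limit of detection in VAV, at 4.38 to 8.39 and 2.19 to 3.49 normalized counts, against 38.4 to 85.0 and 14.6 to 46.0 in WT. In CDK19KO, without Cre by its label, Ttyh1 averaged 4.63 and Il1r2 1198, near their VAV means of 6.94 and 1106. Their WT means were 59.3 and 2321, so low values of these genes were not particular to marrow with Cre. The CDK19KO means of Zbtb16 (367), Nmd3 (993), Alkbh1 (711), Tdrp (11.7) and Clec2i (333) lay between those of VAV and WT. With Clec2i, described next, these 8 genes all passed without VAV replicate 3 (limma adjusted p from 0.015 to 0.0382).

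Clec2i, a lectin that is a ligand of an NK cell receptor, completed these genes with 171 to 241 normalized counts in VAV and 400.3 to 505 in WT. It lies 0.933 Mb from Klra17 in the natural killer gene complex of chromosome 6, a cluster of lectin-like receptors and their ligands that varies between mouse strains. Of the 85 tested genes within 5 Mb of Klra17, 18 did not overlap between VAV and WT, against 6.93% of all genes higher and 5.47% lower without overlap. An unadjusted p under 0.05 was found for 24, against 14.8% of all genes. Such counts were not particular to Klra17. Around other called genes, 10 of 45 did not overlap at Sva, 12 of 56 at Ankrd22 and 17 of 93 at Lmtk2, but 2 of 32 at Gm46223. The Ankrd22 window holds the interferon-induced genes Ifit1, Ifit2, Ifit3 and Ifit3b, at 0.385 to 0.475 Mb from Ankrd22. The 24 also include genes far from Klra17, such as Cd4 at 4.94 Mb and Etv6 at 4.16 Mb. Among the 24, chosen after their values were seen, Klri2 averaged 46.8 normalized counts in VAV and 191 in WT, Klrb1b 12.8 and 58.2, and Klrb1c 106 and 263. None of these was called, with limma adjusted p of 0.195 for Klri2, 0.127 for Klrb1b and 0.164 for Klrb1c. Klrb1c passed without VAV replicate 3 (limma adjusted p = 0.0473). The near-identical members of these families can share reads, so values of single members are uncertain.

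The genes that the study targets elsewhere were not called in VAV against WT. Cdk8 held 789 to 1315 normalized counts in VAV and 1206 to 1275 in WT (log2 difference -0.35 ± 0.18; limma adjusted p = 0.384; exact two-sided permutation p = 0.229). Cdk19 held 3020.5 to 4304 in VAV and 3042 to 3216 in WT (0.21 ± 0.12; limma adjusted p = 0.416; exact permutation p = 0.229). Vav1, whose regulatory elements drive the transgene, held 1845 to 2551 in VAV and 1855 to 2212 in WT (0.13 ± 0.13; limma adjusted p = 0.656; exact permutation p = 0.457). None of the 7 genes of the Mediator kinase module passed. For Cdk8, Cdk19 and Vav1 the range of VAV libraries enclosed that of WT, but only with VAV replicate 3 included. The other VAV libraries held 789 to 994 normalized counts of Cdk8, all below WT, and 3646 to 4304 of Cdk19, all above WT. Without VAV replicate 3 the log2 difference was -0.49 for Cdk8 (limma adjusted p = 0.118) and 0.30 for Cdk19 (limma adjusted p = 0.14), and neither was called.

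Gene groups were described by counts and medians, without a test of the group. Across all tested genes the median log2 difference was -0.01 and 6877 of 13976 were above 0. Interferon-stimulated genes, which cells switch on in response to interferon and other antiviral signals, had 34 of 35 above 0 and a median of 0.45. In 8 of the 35 every VAV library was above every WT library, against 6.93% of all genes, and none was called. Ifit1, which binds foreign RNA, held 553, 404, 268 and 279 normalized counts in VAV, against 79.9, 154 and 136 in WT (1.59 ± 0.34; limma adjusted p = 0.0829). Oas3, a sensor of double-stranded RNA, held 3681, 3303, 2029.6 and 2562 in VAV, against 1373, 1893 and 1546 in WT (0.83 ± 0.23; limma adjusted p = 0.136). Both pairs of groups were apart without overlap, with VAV replicate 1 highest. Without VAV replicate 3, 5 of the 35 were called higher, against 2.29% of all genes, among them Ifit1, Ifit3b, Oas3 and Rtp4 with log2 differences of 0.98 to 1.73.

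Interferon acts on many of these genes through the interferon-stimulated response element. A plain form of this element, the word GAAA repeated after a gap of any 2 bases, was searched on both strands from 250 bases before to 50 bases after each RefSeq gene start. It occurred in 17 of the 25 list genes that had an entry (68%) and in 3.99% of all 27025 genes. The windows of Ifit1, Oas3 and Cmpk2 are shown because Ifit1 and Oas3 are the list genes described above and Cmpk2, outside the list, is the interferon-induced gene that was called, with capitals marking the motif (RefSeq sequence, GRCm38.p6, written 5′ to 3′ on the strand of the gene).
Ifit1 at chr19:34640639-34640938, plus strand, 2 matches, read on the opposite strand: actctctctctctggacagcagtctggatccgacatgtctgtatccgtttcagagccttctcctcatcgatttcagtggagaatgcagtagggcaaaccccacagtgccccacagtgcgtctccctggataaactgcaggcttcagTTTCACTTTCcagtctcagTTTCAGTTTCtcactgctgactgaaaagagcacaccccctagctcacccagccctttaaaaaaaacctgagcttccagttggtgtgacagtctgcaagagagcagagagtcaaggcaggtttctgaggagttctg
Oas3 at chr5:120777610-120777909, minus strand, 1 match, read on the strand of the gene: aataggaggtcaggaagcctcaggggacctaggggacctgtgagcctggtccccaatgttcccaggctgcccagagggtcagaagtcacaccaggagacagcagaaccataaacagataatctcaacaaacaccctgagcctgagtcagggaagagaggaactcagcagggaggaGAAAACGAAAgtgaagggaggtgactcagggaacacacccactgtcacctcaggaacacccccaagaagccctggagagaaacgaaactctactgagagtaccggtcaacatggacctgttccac
Cmpk2 at chr12:26468965-26469264, plus strand, no match: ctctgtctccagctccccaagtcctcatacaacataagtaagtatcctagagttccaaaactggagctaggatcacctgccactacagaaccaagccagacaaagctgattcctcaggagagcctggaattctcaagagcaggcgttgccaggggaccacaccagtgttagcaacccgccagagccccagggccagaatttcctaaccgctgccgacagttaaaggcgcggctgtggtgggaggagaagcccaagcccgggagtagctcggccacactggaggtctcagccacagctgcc

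In Ifit1 the matches began 104 and 85 bases before the gene start and in Oas3 the match began 75 bases before it, and Cmpk2, the one of these 3 that was called, had none of these letters in the window. A match is a description of the sequence and no measure of binding.

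Cholesterol and lipid synthesis genes had 23 of 26 above 0, a median of 0.37 and 8 with every VAV library above every WT library, against 6.93% of all genes, and none was called. Srebf2, the transcription factor that governs cholesterol synthesis, held 2729.9, 2725, 2066 and 2680.2 normalized counts in VAV, against 1621, 1512 and 1476 in WT (0.72 ± 0.15; limma adjusted p = 0.0821). Msmo1 and Fdft1, enzymes of sterol and squalene synthesis, held 872 to 1149.6 and 371 to 449.8 in VAV, against 513 to 689 and 219 to 258 in WT. The lowest VAV library was above the highest WT library for all 3. Without VAV replicate 3, 4 of the 26 were called higher, against 2.29% of all genes, among them Mvk, Srebf2 and Msmo1 with log2 differences of 0.79 to 1.33.

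Most genes of the neutrophil granule lists had a log2 difference above 0 in VAV against WT. The lists are named for granules but also hold other genes, such as Cebpe, Gfi1, Calr and Igsf6 in the primary list. The secondary and tertiary list had 22 of 24 above 0 and a median of 0.52. All 12 genes of the primary list were above 0, with a median of 0.39. No member was called, against 0.093% of all genes. Every VAV library was above every WT library for 4 of the 24 and 0 of the 12, against 6.93% of all genes. Mmp9, gelatinase of the tertiary granule, held 37814, 39074, 24041 and 29207 normalized counts in VAV, against 18508, 19316 and 17226 in WT (0.80 ± 0.19; limma adjusted p = 0.102). Mmp25, a membrane-bound protease of neutrophils, held 4132, 4601, 2442 and 3566 in VAV, against 2044, 1939 and 1856 in WT (0.88 ± 0.20; limma adjusted p = 0.0983). VAV replicate 3 was the lowest VAV library in both genes and still above WT. Without it, 5 of the 24 genes of the secondary and tertiary list were called higher by 0.80 to 1.07, against 2.29% of all genes. These were Ltf, Mmp9, Mmp25, Cd177 and Padi4. In the same fit 1 of the 12 genes of the primary list, Cebpe, was called higher. In bulk marrow, more neutrophils and more of these RNAs per neutrophil cannot be told apart.

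**Figure D4:**
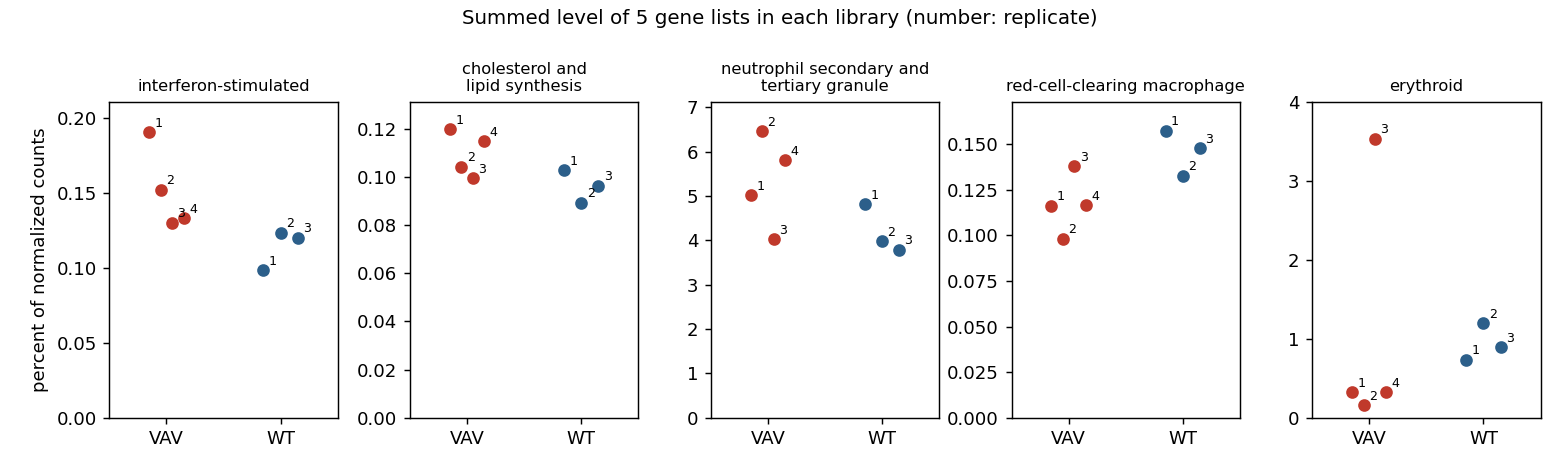
Summed level of 5 gene lists as percent of the normalized counts of each VAV (red) and WT (blue) library, with the replicate number beside each point. The interferon-stimulated genes are higher in all 4 VAV libraries than in WT, while the erythroid share of VAV replicate 3, 3.54%, is above those of WT and those of the other VAV libraries are below.

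Other myeloid genes gave mixed values. Monocyte and macrophage genes had 14 of 16 above 0 and a median of 0.33, with Klf4, a transcription factor of inflammatory monocytes, at 773 to 1515 normalized counts in VAV and 564 to 702 in WT. Cd14, the monocyte co-receptor for endotoxin, went the other way with 101 to 146 in VAV and 249 to 383 in WT (limma adjusted p = 0.114). Its mean in CDK19KO, without Cre by its label, was 121, near the VAV mean of 127. Genes of marrow retention and release had 12 of 16 above 0, among them the leukocyte integrin subunit Itgam, with 12619 to 21612 in VAV and 10002 to 12449 in WT, and Itgal, with 5073 to 7716 in VAV and 3875 to 4535 in WT. Without VAV replicate 3, Klf4, Itgam, Itgal, Itgb2 and Cd44 were called higher, as were the glycolytic genes Hk2 and Pkm, against 2.29% of all genes. These were 1 of 16 monocyte and macrophage genes, 4 of 16 of marrow retention and release and 2 of 24 of glycolysis and HIF targets. Vcam1, also of the retention list, was called lower in that fit (limma adjusted p = 0.0386).

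Genes of the macrophages that clear worn red cells lay mostly below WT. Of the 15, 13 were below 0, the median was -0.38 and 4 had every VAV library below every WT library, against 5.47% of all genes. Mrc1, the mannose receptor, held 1604, 1096, 2124 and 1549 normalized counts in VAV, against 2775, 2223 and 3035 in WT (-0.78 ± 0.19; limma adjusted p = 0.111). Vcam1, an adhesion molecule that these macrophages and stromal cells carry, held 4276, 4297, 6071 and 5954 in VAV, against 8650.2, 6803 and 7294 in WT (-0.57 ± 0.16; limma adjusted p = 0.13). Both were lower in all 4 VAV libraries than in any WT library. Mrc1, Vcam1, C1qb and Timd4, 4 of the 15, were called lower without VAV replicate 3, by -0.93 to -0.66, against 0.687% of all genes.

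Most red cell genes had a log2 difference below 0, and VAV replicate 3 ran against that direction. The erythroid median was -1.21 to -0.20 whichever of the 7 libraries was left out. The 29 erythroid genes had a median of -0.58 and none above 0, and the 15 genes of heme synthesis and iron a median of -0.39. Hbb-bs, an adult beta globin, held 9979.7, 3061, 182220.0 and 7762 normalized counts in VAV, against 24449, 67862 and 48060.1 in WT. VAV replicate 3 was the highest of the 7 libraries and the other 3 VAV libraries were the lowest. Without VAV replicate 3 the erythroid median was -1.21 and 28 of the 29 genes were lower in every VAV library than in WT, against 13.5% of all genes, yet none was called. A further fit took the erythroid level of each library, the mean of these same 29 genes, as a covariate. The erythroid median in it, -0.01, is therefore near 0 by construction and is no result. The heme median was 0.05 and the number of called genes 49 (0.351%). Mmp25, Hk2, Mvk and Nrp1 were among those higher and Cd14 among those lower.

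Lymphoid and cell-cycle genes were not called either in VAV against WT. Without VAV replicate 3, 1 of 30 mitosis genes, Foxm1, was called higher (limma adjusted p = 0.0451), against 2.29% of all genes. In that fit 1 of 20 NK cell genes, Klrb1c, was called lower (limma adjusted p = 0.0473), against 0.687% of all genes. Mature B cell genes had 18 of 22 below 0 and a median of -0.48, T cell genes 20 of 24 below 0 and a median of -0.30, and no member of either was called in VAV against WT or without VAV replicate 3. The T cell median was -0.03 without WT replicate 1. Mitosis genes had 28 of 30 above 0, a median of 0.20 and 7 with every VAV library above every WT library, against 6.93% of all genes, while S phase genes had a median of 0.01 and, without VAV replicate 3, of -0.11. Plk1, a kinase of mitotic entry, held 1469.8 to 2156 normalized counts in VAV and 942 to 1223 in WT (limma adjusted p = 0.216). No p53 target, NF-kappaB or unfolded protein response gene was called, against 0.093% of all genes. The p53 target median was 0.06 in 25 genes and the NF-kappaB and inflammatory median 0.09 in 21. Stress and unfolded protein response genes had 20 of 25 above 0 and a median of 0.27. Without VAV replicate 3, the p53 target Sesn1 and the NF-kappaB list gene Bcl2a1b were called lower, against 0.687% of all genes.

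**Figure D5:**
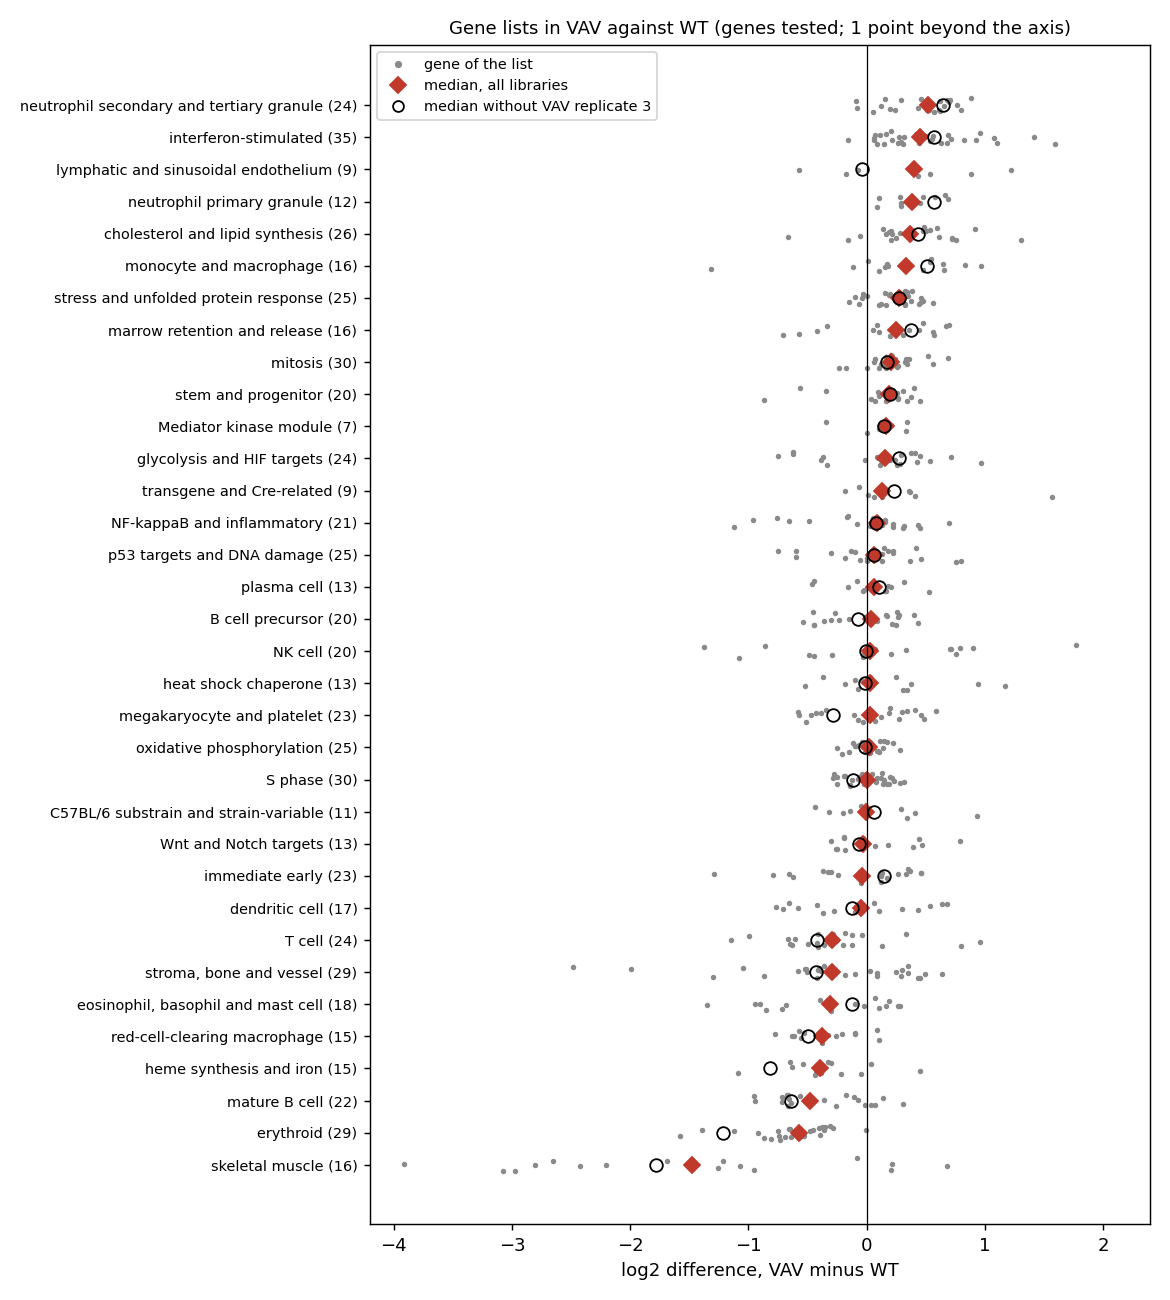
Log2 difference of VAV minus WT for each tested gene of 34 gene lists (grey), with the list median over all libraries (red) and without VAV replicate 3 (open circles); numbers in brackets are genes tested. Neutrophil, interferon-stimulated and cholesterol genes lie mostly right of 0, and erythroid, heme and macrophage genes that clear red cells lie mostly left of it.

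DKO against CDK19KO gave another pair of genotypes with and without Cre that shares no library with VAV and WT, although DKO also carries floxed Cdk8. It called 279 genes (2%), 187 higher in DKO (1.34%) and 92 lower (0.658%). Of the 13 genes called in VAV against WT, 6 passed there in the same direction: Prox1 (-4.73 ± 0.32), Sva (5.25 ± 0.35), Commd10 (2.11 ± 0.18), Ankrd22 (0.91 ± 0.12), Slc7a7 (0.89 ± 0.20) and Cmpk2 (0.54 ± 0.14), as log2 differences with SE. Klra17, Lmtk2, Rap1gap2, Gm46223, Tmem267 and Rpl5 had the same sign in DKO against CDK19KO and were not called. Tgm3 had the other sign, at -0.72 ± 0.26, and was the only 1 of the 13 for which the difference between the 2 comparisons itself passed (-2.24; limma adjusted p = 0.014). Interferon-stimulated genes had 31 of 35 above 0 in DKO against CDK19KO, with a median of 0.65 and 8 called higher, and cholesterol genes 25 of 26 above 0, with a median of 0.47 and 7 called higher. Mitosis genes had 6 of 30 above 0 in DKO against CDK19KO, with a median of -0.12, and 28 of 30 above 0 in VAV against WT, with a median of 0.20. T cell genes had 23 of 24 above 0 in DKO against CDK19KO, with a median of 0.77, and 4 of 24 in VAV against WT, with a median of -0.30. Genes of macrophages that clear worn red cells had 0 of 15 above 0 in DKO against CDK19KO, with a median of -0.72 and 8 called lower. Eosinophil, basophil and mast cell genes had 14 of 18 above 0 there, with a median of 0.88 and 5 called higher. In VAV against WT 6 of these 18 were above 0, with a median of -0.31. Whether these lists differ between the comparisons was not tested. Deletion of Cdk8 and the transgene cannot be told apart in DKO against CDK19KO.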

How the data were processed

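Per the labels' protocols, marrow RNA was purified with Trizol, libraries were prepared with a Kapa mRNA kit, and read pairs were sequenced on a NovaSeq X. The mm10 genome, Salmon 1.4.0 and DESeq2 appear in the submitters' processing notes without their roles. The annotation and any filter are not given in the sources used here. The authors deposited normalized counts (a signal), that is gene counts scaled by 1 size factor per library. Within a tolerance of 0.001, 100% of a library's values were multiples of its lowest one, so whole reads could be recovered for count tests. Of the 34432 genes, 11764 had no reads in any library. Coordinates come from GENCODE vM21 on GRCm38, which matched 13972 of the 13976 tested genes by Ensembl ID, and 12 tested genes that share a symbol were kept apart by ID.

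The log2 of the normalized count plus a pseudocount of 1 was modelled with limma 3.58.1 under R 4.3.3 (trend, no covariate), with all 19 libraries of the 5 genotypes sharing 1 estimate of the spread. Adjustment was by Benjamini-Hochberg over all genes tested, and a gene was called at an adjusted p under 0.05. Exact permutation tests used scipy 1.17.1. Values after ± are SD for normalized counts and SE for log2 differences. Alternatives were other pseudocounts, filters and scalings, edgeR 4.0.16 and DESeq2 1.42.0 on the recovered reads, other sets of libraries, a replicate block and an erythroid covariate. The fit was tested on simulated data.

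The 34 gene lists, the comparison and the naming rule were chosen with earlier results of these data known. The rule named up to 15 called genes per direction, filled to 10 with the smallest p, with a mean of at least 20 in VAV or WT and no overlap between libraries, and up to 4 genes of smallest p per list. It skipped predicted and sex-linked genes. Replicates are numbered in the labels, which name no animals, so the p-values reflect the variation among these libraries, and that may be technical. Intervals and floors cover counting error only.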

Additional observations from a re-analysis of the deposited data

Results flagged for a closer look

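In 18 of the 215 groups of 4 libraries checked, 1 library stood far from the rest of its group, and chance gives about 1 in 20. VAV replicate 3 accounts for 12 of them. It was high in the globins Hbb-bs (182220.0 normalized counts, against 3061 to 9979.7 in the other VAV libraries) and Hbb-bt (47199, against 1116 to 2704), in the red cell membrane gene Rhag (4931, against 679 to 1399), in the heme enzymes Cpox (9642, against 2401 to 3321) and Urod (2113, against 465 to 631) and in E2f2 (6051, against 4037 to 4173). Its summed erythroid share was 3.54% and its heme synthesis and iron share 0.44%, against 0.176 to 0.202% in the other VAV libraries. It was low in Itgam (12619, against 20546 to 21612), Gfi1 (435, against 792 to 841) and Srebf2 (2066, against 2680.2 to 2729.9), and its share of genes that vary between C57BL/6 substrains was 0.121%, against 0.152 to 0.155%.

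VAV replicate 2 was high in Birc3 (2939.6 normalized counts, against 2287 to 2379), Ftl1 (23565, against 16342 to 17206) and Lyve1 (143, against 60.4 to 73.1). VAV replicate 1 was high in Cxcl2 (190.0, against 31.9 to 46.2) and Hspa1b (356, against 56.2 to 68.5). CDK19KO replicate 2 was low in Gm46223 (4514, against 5335 to 5474).

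For 2 genes the difference in DKO against CDK19KO departed from that in VAV against WT. Tgm3 held 26.6 to 34.6 normalized counts in DKO and 43.1 to 62.0 in CDK19KO, and the difference of the log2 differences was -2.24 (limma adjusted p = 0.014). Cd163, the hemoglobin scavenger receptor of macrophages, held 51.9 to 77.9 in DKO and 419 to 703 in CDK19KO, against 434 to 695 in VAV and 743 to 923 in WT, and the difference was -2.42 (limma adjusted p = 0.001).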

How the results depend on the processing

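Prox1, Sva and Commd10 kept their direction and call in every alternative that tested them (Sva gets no adjusted p from DESeq2 and is below the filter at a mean of 50). The number of called genes, 13, was 11 to 18 with pseudocounts of 0.5 and 5, no filter on low values, a mean of at least 50, TMM scaling, edgeR and the replicate block. It was 321 with DESeq2, 640 with limma array weights, 49 with the erythroid covariate, 129 with the WT and CDK19KO libraries pooled and 3 with VAV and WT alone in the fit. Leaving out 1 library gave 3 to 416 calls: 416 without VAV replicate 3, 8 without VAV replicate 4, 3 without WT replicate 1 and 4 each without VAV replicate 1, VAV replicate 2, WT replicate 2 or WT replicate 3. Leaving out 1 CDK19KO or DKO library, an alternative added after the data were seen, gave 6 to 13. The cause was not tested. No called gene reversed. The numbers do not pair the libraries (correlations of deviations of same-numbered VAV and WT libraries -0.10, -0.14 and 0.01); with the replicate block 18 genes were called, 11 of them among the 13. Of the 13 genes, the number called in DKO against CDK19KO, 6, was 5 with edgeR, 7 with DESeq2, 6 with the block and 4 to 6 with 1 library left out, and the number whose difference between the comparisons passed was 1 in each of the 3 alternatives added later. Medians of 14 of the 34 lists changed sign in some alternative. Depth limits genes at a few reads, such as Tdrp in VAV.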
